A study of Mus musculus with 4 samples.

Results

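Kinesins, dynein and dynactin, the proteins that bind microtubules, and the actins with the proteins that nucleate, cut, cap and pull their filaments make up most of the moving parts of the neuronal cytoskeleton. Of 6352 transcripts in a table of ribosome footprints at translation initiation sites, 70 were such genes. They were chosen by gene name alone (kinesin, dynein, dynactin, myosin, Arp2/3, actin, capping protein, cofilin, profilin, tropomodulin, tropomyosin and microtubule-associated protein names, with the autophagy genes of the Map1lc3 group left out), so that the rule itself uses no footprint value. Of these, 37 were assigned to microtubules and 31 to actin, and the nuclear actin-related genes Actr6 and Actr8 were assigned to neither.

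The footprints came from primary cultured mouse cortical neurons given harringtonine at 5 µg/ml for 3 min. Harringtonine arrests ribosomes as they begin to translate, so that footprints gather at start codons. There was 1 library for each of 4 conditions. By their titles and characteristics, the Ltn1 KO and WT libraries coded SC came from neurons with Ttc3 RNAi. Those coded TTC, again Ltn1 KO and WT, came from neurons with scrambled RNAi. LTN1 is the ubiquitin ligase that marks unfinished chains on stalled 60S ribosomal subunits for degradation, and TTC3 is another ubiquitin ligase. Read as abbreviations, the codes contradict the RNAi given in the titles, so the libraries are named here by genotype and code as KO SC, WT SC, KO TTC and WT TTC. An exchange of the RNAi labels would change which code stands for Ttc3 RNAi, and so the sign of an RNAi effect read from SC against TTC. The SC minus TTC values and the KO against WT values would stay as they are. The sources used here do not give the days in culture of these neurons, the number of animals pooled or the part of Ltn1 that is deleted.

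Because no condition was repeated, intervals given for single libraries are exact Poisson or binomial 95% intervals that cover counting error only, and a difference between 2 libraries has no replicate check. The libraries held 2673112 (KO SC), 2096153 (WT SC), 3655827 (KO TTC) and 1460425 (WT TTC) reads, of which 6.06% to 6.85% lay at the listed sites. The members had 5898, 4727, 10604 and 4328 of these reads in the same order. Ltn1 itself had 37 and 10 reads in KO SC and WT SC, and 0 and 2 reads in KO TTC and WT TTC. Its site thus had more reads in the KO SC library than in WT SC, and whether the deletion reaches this site is not known, so it checks no label. Ttc3 had 2, 3, 0 and 0 reads in KO SC, WT SC, KO TTC and WT TTC, too few to check the RNAi. All 10 neuronal markers (Map2 among them) had reads in every library, and their summed level was 2340, 2097, 2196 and 2016 RPM (reads at the site scaled to the reads of the library) in KO SC, WT SC, KO TTC and WT TTC. Astrocyte markers summed to 113, 192, 173 and 229 RPM (7 of 8 in the table) and oligodendrocyte-lineage markers to 11.97, 38.6, 39.9 and 67.8 RPM (7 of 10) in the same order. Dividing-progenitor markers summed to 6.73, 14.3, 18.1 and 39.0 RPM (3 of 6) in that order. Fibroblast, mural and endothelial markers summed to 18.7, 24.3, 26.3 and 19.2 RPM (2 of 10). The glial and progenitor sums were lower in KO than in WT and lower in SC than in TTC libraries. The fibroblast, mural and endothelial sum did not follow this order. The part of these cells in the differences below was not tested.

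Microtubules are polar tracks. Kinesins carry cargo mostly towards their plus ends, into the axon, and cytoplasmic dynein with its activator dynactin carries cargo back to the cell body. Tau and the MAP proteins line and stabilise the tracks, and the end-binding proteins ride on their growing tips. Actin filaments fill growth cones and dendritic spines, where the Arp2/3 complex starts branches, capping proteins and tropomodulins close filament ends, cofilin severs old filaments and myosins pull on them. A value below is the footprint level of 1 initiation site, which depends on the amount of mRNA as well as on the rate of initiation, and no RNA-seq of the same cells was used here to part them. In a culture, fewer cells of a type and less mRNA per cell cannot be told apart either.

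The cytoskeletal sites were well covered compared with the table as a whole. A mean over the 4 libraries of at least 5 RPM was reached by 26 of 37 microtubule genes and 22 of 31 actin genes, against 36.4% of all 6352 transcripts. The median of these means was 9.14 RPM for microtubule genes, 16.2 RPM for actin genes and 2.84 RPM for all transcripts. Each class was led by a few genes. Mapt (tau) held 27.6% and 25.4% of the microtubule level in KO SC and WT SC and 34.8% and 28.7% in KO TTC and WT TTC. Actb, cytoplasmic beta-actin, held 35.9% and 35.3% of the actin level in KO SC and WT SC and 36.6% and 40.2% in KO TTC and WT TTC. At the other end, the non-muscle myosin heavy chain Myh9 and the tropomyosin Tpm3 had no reads in any library, Tpm1 had 1 read in KO SC only, and Dync2li1, a light intermediate chain of ciliary dynein, had 3 reads in KO SC only.

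**Figure D1:**
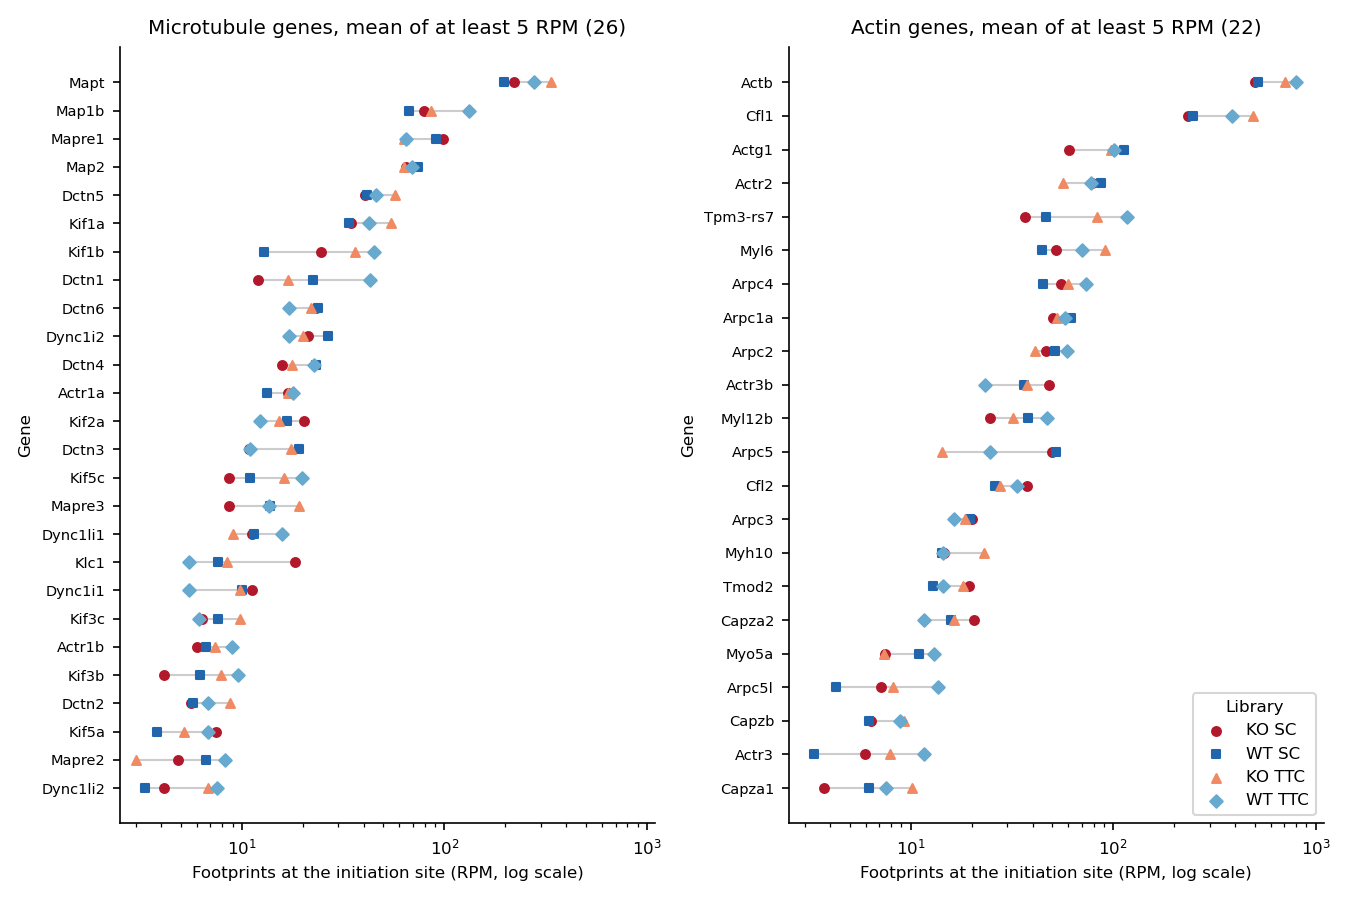
Footprint level at the initiation site (RPM, log scale, x axis) of the 26 microtubule genes (left) and 22 actin genes (right) with a 4-library mean of at least 5 RPM, one row per gene, with one symbol per library and a grey line over their range. Mapt and Actb lead the classes, and for most genes the 4 libraries lie close together compared with the distance between genes.

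Differences between libraries are given as log2(RPM + 1), KO minus WT within a code and SC minus TTC within a genotype. The added 1 RPM understates the change of low genes. A 2-fold difference was counted only at a 4-library mean of at least 5 RPM, which 48 members and 2314 transcripts reached. Reads were also compared by a two-sided exact binomial test with Benjamini-Hochberg adjustment over all transcripts with reads. This test compares 2 libraries, not 2 conditions. Libraries scattered by more than counting error: over transcripts with at least 20 reads, the Pearson statistic, which is about 1 for counting error alone, averaged 3.28 (SC pair), 3.17 (TTC pair), 5.12 (KO libraries) and 4.15 (WT libraries). Its calls are therefore calls on libraries only. Where both libraries of a genotype or code lay above or below the others, the share of all transcripts ordered so was not counted.

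In Ltn1 KO neurons few cytoskeletal sites differed from WT by 2-fold. In the SC pair 1 member of 48 was 2-fold higher in KO, the kinesin light chain Klc1, and none was 2-fold lower, against 2.98% higher and 6.83% lower among all 2314 transcripts. In the TTC pair none was higher and 2 were lower, the dynactin subunit Dctn1 and the end-binding protein Mapre2, against 5.27% higher and 4.67% lower. An additive limma fit to all 4 libraries, with terms for genotype and for code, has 1 residual degree of freedom and takes the genotype difference to be the same in both codes. It called no member and none of the 2314 transcripts at an adjusted p of 0.05. At an unadjusted p of 0.05 it marked 2 members as higher and 2 as lower, against 3.72% and 7.22% of all transcripts. edgeR's quasi-likelihood test called none either, and marked 2.51% of transcripts as higher and 6.09% as lower at an unadjusted p of 0.05.

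**Figure D2:**
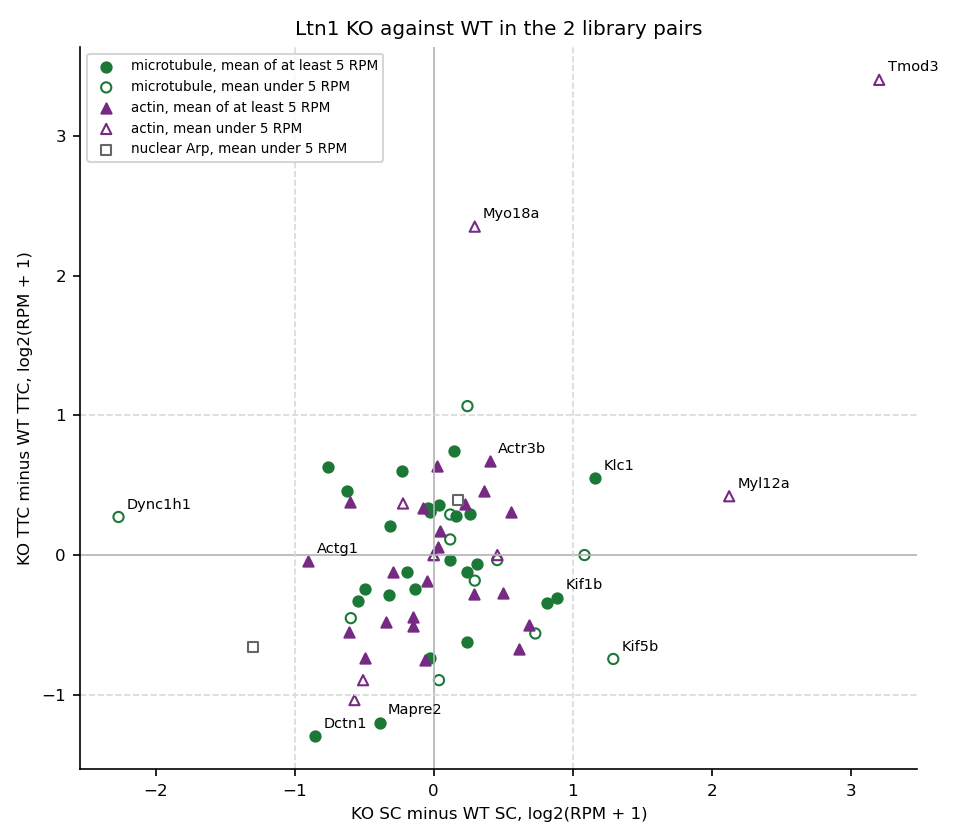
Difference between Ltn1 KO and WT in log2(RPM + 1) for the 70 members, in the SC pair (x axis) and in the TTC pair (y axis), which share no library. Filled symbols have a 4-library mean of at least 5 RPM, open symbols a lower one, and dashed lines mark 2-fold. Tmod3, at 3.21 and 3.40, stands alone in the upper right, Dctn1 lies at −0.85 and −1.30, and most other genes lie within 2-fold in both pairs.

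Tmod3 was the one member with footprints in both KO libraries and none in either WT library. Tropomodulins cap the slow-growing, pointed end of actin filaments. The Tmod3 site (gene at chromosome 9, 75497784 to 75559657, GRCm38) had 22 reads (8.23 RPM) in KO SC and 0 in WT SC, and 35 reads (9.57 RPM) in KO TTC and 0 in WT TTC. With a floor of 3 reads put in place of 0 in a WT library, it was 5.75-fold higher in KO SC and 4.66-fold higher in KO TTC. These ratios leave out counting error and are not lower bounds. The exact Poisson intervals were 5.16 to 12.5 RPM in KO SC and 0 to 1.76 RPM in WT SC. In the TTC pair they were 6.67 to 13.3 RPM in KO and 0 to 2.53 RPM in WT. The exact binomial test called it in both pairs (adjusted p = 0.000289 for SC and 0.000778 for TTC), and it was the only member called in the same direction in both. Among all transcripts with reads, 0.47% were called higher and 0.722% lower in both pairs. Its mean of 4.45 RPM was just below the minimum for the 2-fold counts and for the limma fit. Fitted by limma without that minimum, it was higher in KO (log2 difference 3.30 ± 0.69 SE, adjusted p = 0.000797), as were 0.437% of 5955 transcripts, while 0.638% were lower. Sites with 0 reads in both WT libraries and at least 20 in both KO libraries numbered 7 of 6352 (0.11%), namely Get4, Nans, Ing4, 1110059E24Rik, Tmod3, Pold2 and Polr2c. The cutoff of 20 reads was not part of the planned design and lies just below the 22 reads of Tmod3 in KO SC. The reverse case, 0 reads in both KO libraries, was not counted, so the share covers a single direction and does not measure how rare such a gap is. The paralog Tmod2, the neuronal tropomodulin, showed no such gap, with 19.5 and 12.9 RPM in KO SC and WT SC and 18.1 and 14.4 RPM in KO TTC and WT TTC. 

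Dctn1, which encodes the p150 subunit through which dynactin holds dynein and the microtubule, was the counterpart on the lower side (gene at chromosome 6, 83165909 to 83200118). It had 32 reads (11.97 RPM) in KO SC and 47 (22.4 RPM) in WT SC, and 62 reads (17.0 RPM) in KO TTC and 63 (43.1 RPM) in WT TTC. Both KO levels thus lay below both WT levels. The log2 difference was −0.85 in the SC pair (exact binomial adjusted p = 0.0746) and −1.30 in the TTC pair (adjusted p = 3.24e-05). The limma genotype term was −1.07 ± 0.27 (SE, adjusted p = 0.403), and without the minimum of 5 RPM the same term had an adjusted p of 0.0215. Of the other 8 dynactin genes, Dctn4 was also lower in KO in both pairs, as were 34.9% of all 2314 transcripts. It had 15.7 and 23.4 RPM in KO SC and WT SC and 17.8 and 22.6 RPM in KO TTC and WT TTC. The exact binomial test did not call Dctn4 in either pair. Dctn5, the most abundant of these 8 genes, stood at 40.8 and 41.5 RPM in KO SC and WT SC and at 57.2 and 45.9 RPM in KO TTC and WT TTC. Summed over all 9, dynactin was at 135 (121 to 149) and 159 (142 to 177) RPM in KO SC and WT SC and at 168 (155 to 182) and 178 (157 to 201) RPM in KO TTC and WT TTC, with overlapping intervals in both pairs.

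Dync1h1, the heavy chain and motor of cytoplasmic dynein, gave opposite pictures in the pairs. In the SC pair it had 0 reads in KO and 8 (3.82 RPM) in WT, and in the TTC pair 31 (8.48 RPM) in KO and 10 (6.85 RPM) in WT. KO SC is therefore the one library without it. With the floor of 3 reads put in place of 0 in KO SC, the site was 3.40-fold higher in WT SC and 7.56-fold higher in KO TTC. These ratios leave out counting error and are not lower bounds. The exact binomial test called the SC pair (adjusted p = 0.0249) and not the TTC pair (0.905). The dynein intermediate and light intermediate chains link the motor to dynactin and cargo. Dync1i2, the most abundant of them, had 21.3 and 26.7 RPM in KO SC and WT SC and 20.0 and 17.1 RPM in KO TTC and WT TTC. Dync1i2 was thus lower in KO in the SC pair and higher in the TTC pair, as was the heavy chain, but had reads in every library. All 6 dynein genes together summed to 49.0 and 55.3 RPM in KO SC and WT SC and 54.2 and 52.7 RPM in KO TTC and WT TTC.

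Among kinesin genes at or above 5 RPM the largest genotype difference was that of Klc1, the light chain that binds cargo for kinesin-1. In the SC pair Klc1 had 18.3 RPM (49 reads) in KO and 7.63 RPM (16 reads) in WT, and in the TTC pair 8.48 RPM (31 reads) in KO against 5.48 RPM (8 reads) in WT. It was higher in KO in both pairs, by 1.16 and 0.55 on the log2 scale, with exact binomial adjusted p of 0.0285 and 0.721 and a limma term of 0.86 ± 0.35 (SE, adjusted p = 0.446). The KO SC level stood above the other libraries. Kif1a, the axonal carrier of synaptic vesicle precursors and the most abundant kinesin, had 34.8 and 33.9 RPM in KO SC and WT SC and 54.7 and 42.5 RPM in KO TTC and WT TTC. Its relative Kif1b had 24.7 and 12.9 RPM in KO SC and WT SC and 36.4 and 45.2 RPM in KO TTC and WT TTC, so that KO was the higher in one pair and the lower in the other. The kinesin-1 motors had ranges over the 4 libraries of 3.82 to 7.48 RPM for Kif5a, 0.477 to 3.42 RPM for Kif5b and 8.60 to 19.9 RPM for Kif5c. Summed, the 13 kinesin genes stood in the SC pair at 135 (121 to 149) RPM in KO against 105 (91.5 to 120) RPM in WT, and in the TTC pair at 164 (151 to 178) RPM in KO against 162 (142 to 184) RPM in WT. The intervals were apart in the SC pair alone, and whether the pairs differ was not tested.

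Among the proteins that bind along the microtubule or at its tip, genotype differences were small for Mapt and Map2 and went in opposite directions in the pairs for Map1b and Mapre3. Mapt had 220 and 197 RPM in KO SC and WT SC and 335 and 276 RPM in KO TTC and WT TTC. It was higher in KO in both pairs, by 0.16 and 0.28 on the log2 scale, and the exact binomial test called the TTC pair (adjusted p = 0.0151) but not the SC pair (0.347). Map2, the dendritic MAP, varied least among the abundant members, with 64.7 and 73.9 RPM in KO SC and WT SC and 63.5 and 69.2 RPM in KO TTC and WT TTC. Map1b, abundant in growing axons, had 79.7 and 67.3 RPM in KO SC and WT SC but 85.6 and 132 RPM in KO TTC and WT TTC. Its WT TTC level was the highest, and the test called the TTC pair as lower in KO (log2 difference −0.62, adjusted p = 0.000264). Mapre2 passed 2-fold in the TTC pair on 11 reads (3.01 RPM) in KO TTC and 12 (8.22 RPM) in WT TTC, with 4.86 and 6.68 RPM in KO SC and WT SC. The exact binomial test did not call it (adjusted p = 0.145 in the TTC pair).

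**Figure D3:**
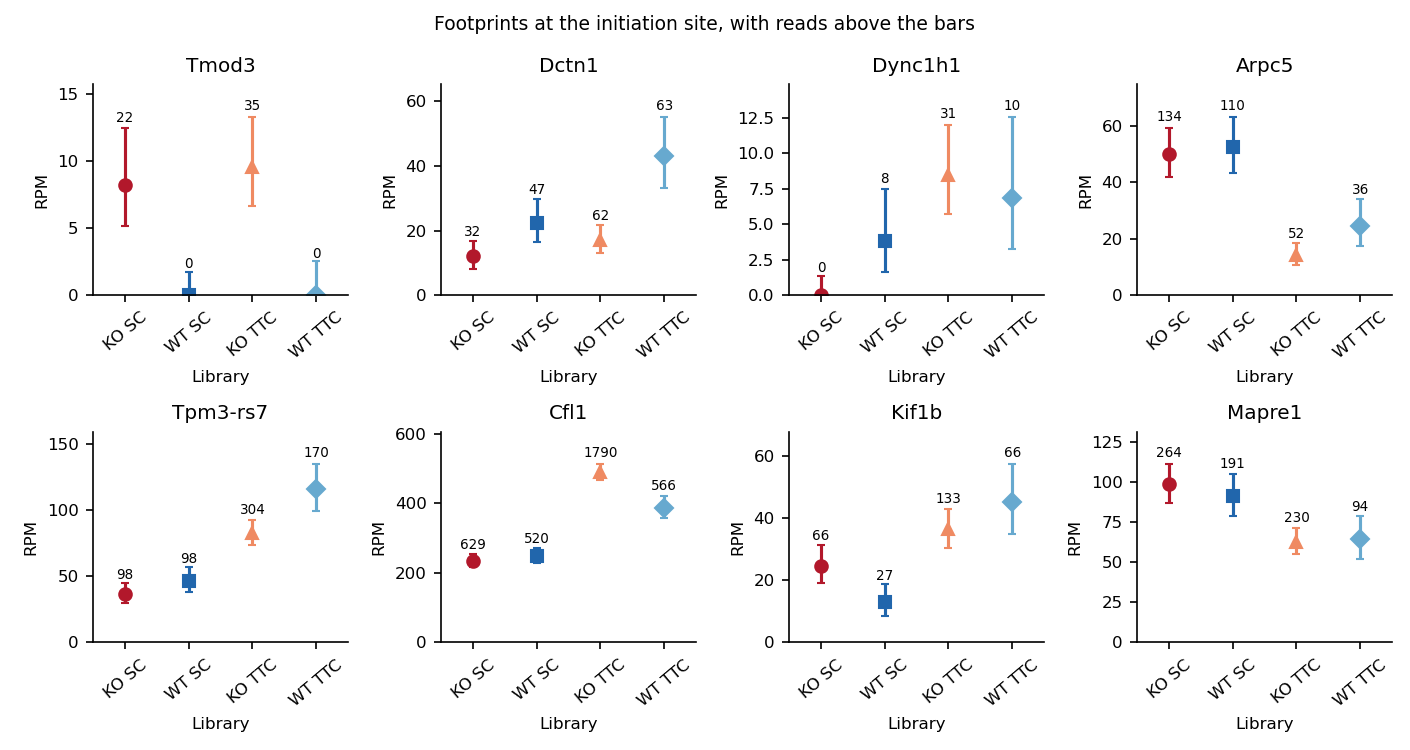
Footprint level (RPM, y axis starting at 0) at the initiation sites of Tmod3, Dctn1, Dync1h1, Arpc5, Tpm3-rs7, Cfl1, Kif1b and Mapre1 in the 4 libraries, with exact Poisson 95% intervals as bars and the number of reads above each. Tmod3 has 22 and 35 reads in the KO libraries and 0 in the WT libraries, and Arpc5 and Mapre1 are higher, and Tpm3-rs7 and Cfl1 lower, in both SC than in both TTC libraries.

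On the actin side no member passed 2-fold between genotypes at the minimum of 5 RPM. Actb had 503 and 521 RPM in KO SC and WT SC and 707 and 803 RPM in KO TTC and WT TTC. It was lower in KO by 0.05 and 0.18 on the log2 scale, and the exact binomial test called the TTC pair only (adjusted p = 0.00993). Actg1, gamma-actin, whose protein and coding sequence are nearly those of Actb, had in the SC pair 60.2 RPM in KO against 113.5 RPM in WT, and in the TTC pair 97.7 RPM in KO against 100.7 RPM in WT. KO SC was the low library, and the SC pair was called (log2 difference −0.90, adjusted p = 1.65e-07). How the authors' counting treated reads that match both actins is not given in the sources used here, so the division between Actb and Actg1 is uncertain. Cfl1, the main cofilin, had 235 and 248 RPM in KO SC and WT SC and 490 and 388 RPM in KO TTC and WT TTC, and was called as higher in KO in the TTC pair (log2 difference 0.34, adjusted p = 8.12e-05).

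Of the 4 capping and tropomodulin genes at or above 5 RPM, 3 had higher values in KO in the SC pair and all 4 in the TTC pair, against 41.7% and 45.5% of all transcripts at this level, and 4 genes are too few to read a direction from. Capza2, an alpha subunit of the barbed-end capping protein, had 20.6 and 15.7 RPM in KO SC and WT SC and 16.4 and 11.6 RPM in KO TTC and WT TTC. Capza1 was the exception in the SC pair, with 3.74 and 6.20 RPM in KO SC and WT SC, against 10.1 and 7.53 RPM in KO TTC and WT TTC. None of these 4 was called by the exact binomial test in either pair. With Tmod3 the family summed to 58.4 (49.6 to 68.3) and 41.0 (32.8 to 50.7) RPM in KO SC and WT SC and to 63.5 (55.6 to 72.2) and 42.5 (32.5 to 54.4) RPM in KO TTC and WT TTC, and Tmod3 made up 8.23 and 9.57 RPM of the KO sums.

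The myosin light chains Myl12a and Myl12b, whose proteins are nearly identical, differed in level and in pattern. Myl12b had 24.7 and 38.2 RPM in KO SC and WT SC and 32.0 and 47.2 RPM in KO TTC and WT TTC, and was lower in KO by 0.61 and 0.55 on the log2 scale (limma term −0.58 ± 0.23 SE, adjusted p = 0.446). Myl12a had 3.37 and 0 RPM (9 and 0 reads) in KO SC and WT SC and 4.92 and 3.42 RPM (18 and 5 reads) in KO TTC and WT TTC. Reads that match both genes could have been divided between them by the authors' counting. Actr3b, the brain-rich form of the Arp3 subunit, was higher in KO in both pairs, with 48.3 and 36.3 RPM in KO SC and WT SC and 37.7 and 23.3 RPM in KO TTC and WT TTC (limma term 0.54 ± 0.23 SE, adjusted p = 0.446).

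Over the 48 members at or above 5 RPM, 12 were higher and 17 lower in KO in both pairs, against 22.6% and 34.9% of all 2314 transcripts, so that the members' shares lay close to the table's. The median log2 difference of the microtubule genes was 0.04 (SC pair) and −0.04 (TTC pair), that of the actin genes was 0 in both, and that of all transcripts was 0 in both. In the SC pair 20 microtubule genes were higher and 17 lower in KO, and 15 actin genes were higher and 14 lower. In the TTC pair 16 microtubule genes were higher and 20 lower, and 13 actin genes were higher and 15 lower. These splits move with the scaling of the libraries: with median-of-ratios factors, which shift the median of all transcripts at or above 5 RPM in the SC pair to 0.02, against −0.11 as deposited, 24 microtubule genes were higher and 13 lower and 18 actin genes were higher and 11 lower in that pair.

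More members passed 2-fold between SC and TTC libraries than between KO and WT libraries, and the same held for all transcripts. Of all 2314, 296 (KO libraries) and 380 (WT libraries) passed 2-fold between SC and TTC. Between KO and WT, 227 (SC pair) and 230 (TTC pair) did. Between the KO libraries, 2 members were 2-fold higher in SC (Klc1 and the Arp2/3 subunit Arpc5) and 4 were 2-fold lower (Mapre3, Capza1, Cfl1 and Tpm3-rs7), against 3.15% higher and 9.64% lower among all 2314 transcripts. Between the WT libraries, Arpc5 was 2-fold higher in SC and Kif1b, Actr3, Arpc5l and Tpm3-rs7 were 2-fold lower, against 6.91% higher and 9.51% lower. The exact binomial test called 4 members higher and 11 lower between the KO libraries (5.71% and 10.9% of all transcripts with reads) and 1 higher and 10 lower between the WT libraries (3.82% and 7.02%). For KO against WT it called 2 higher and 2 lower in the SC pair (2.63% and 4.74%) and 3 higher and 4 lower in the TTC pair (3.14% and 4.41%). A member with many reads is called on a small difference, and the members had more reads than most transcripts. The code cannot be told apart from any other way in which the SC and TTC libraries were handled separately.

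Arpc5, a small subunit of the Arp2/3 complex, was the only member higher in SC in both genotypes by 2-fold and by the exact binomial test. Its site (gene at chromosome 1, 152766542 to 152775580) had 50.1 RPM (134 reads) in KO SC against 14.2 RPM (52 reads) in KO TTC, and among the WT libraries 52.5 RPM (110 reads) in SC against 24.7 RPM (36 reads) in TTC. The SC and TTC levels did not overlap. Of all 2314 transcripts, 1.3% were 2-fold higher and 2.98% 2-fold lower in SC in both genotypes. The log2 differences were 1.75 between the KO and 1.06 between the WT libraries (exact binomial adjusted p = 1.31e-13 and 0.00137), and the limma code term was 1.40 ± 0.26 (SE, adjusted p = 0.0502). Of all transcripts, 1.04% were called higher in SC in both genotypes. Its paralog Arpc5l went the other way, with 7.11 and 8.21 RPM in KO SC and KO TTC and 4.29 and 13.7 RPM in WT SC and WT TTC, called as lower between the WT libraries (log2 difference −1.47, adjusted p = 0.0403).

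The other subunits of Arp2/3 did not move as one. Actr2, the Arp2 subunit and the most abundant of the complex, had 78.2 and 56.6 RPM in KO SC and KO TTC and 86.8 and 77.4 RPM in WT SC and WT TTC, and was called as higher between the KO libraries (adjusted p = 0.0103). Actr3, the Arp3 subunit, had 5.99 and 7.93 RPM in KO SC and KO TTC and 3.34 and 11.6 RPM in WT SC and WT TTC, on 7 to 29 reads. Its log2 difference between the WT libraries was −1.54 (adjusted p = 0.0517). Arpc4 was called as lower between the WT libraries, at 44.8 RPM in SC and 73.3 RPM in TTC (adjusted p = 0.00981), while the KO libraries had 55.0 and 60.2 RPM. Summed over 9 genes, the complex stood at 362 (339 to 385) and 297 (280 to 316) RPM in KO SC and KO TTC and at 361 (336 to 388) and 357 (327 to 389) RPM in WT SC and WT TTC.

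Tpm3-rs7 (chromosome 14, 113314601 to 113316720) was the 1 member lower by 2-fold in SC in both genotypes. The name is that of a processed copy of the tropomyosin gene Tpm3, whose product lies along the actin filament. The parent Tpm3 had no reads in any library, so the reads listed under Tpm3-rs7 may belong to either, and they are given here under the name in the table. It had 36.7 RPM (98 reads) in KO SC against 83.2 RPM (304 reads) in KO TTC, and among the WT libraries 46.8 RPM (98 reads) in SC against 116 RPM (170 reads) in TTC. Both SC levels lay below both TTC levels. The log2 differences were −1.16 and −1.30 (exact binomial adjusted p = 2.67e-11 and 1.14e-10), with a limma code term of −1.23 ± 0.20 (SE, adjusted p = 0.0502). Between genotypes Tpm3-rs7 was lower in KO in both pairs, with log2 differences of −0.34 (SC pair) and −0.48 (TTC pair). The exact binomial test called the TTC pair (adjusted p = 0.0129) but not the SC pair (0.366).

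Cfl1, Actb, Mapt and Myl6, the light chain of non-muscle and smooth muscle myosin, completed the group of 5 members that the exact binomial test called as lower in SC in both genotypes, against 2.43% of all transcripts. Cfl1 had 235 and 490 RPM in KO SC and KO TTC and 248 and 388 RPM in WT SC and WT TTC, with log2 differences of −1.05 and −0.64 (limma code term −0.85 ± 0.15 SE, adjusted p = 0.0502). Actb differed by −0.49 and −0.62, Mapt by −0.60 and −0.48 and Myl6, at 52.0 and 91.4 RPM in KO SC and KO TTC and 44.4 and 70.5 RPM in WT SC and WT TTC, by −0.80 and −0.66. Among all 2314 transcripts, 40.9% were lower in SC in both genotypes. Cfl1, Actb, Mapt and Myl6 each had lower values in both SC than in both TTC libraries. In limma their adjusted p for the code term was 0.0773 (Actb), 0.117 (Mapt) and 0.118 (Myl6). With an adjusted p of 0.05, limma called no member and 1 of 2314 transcripts (0.0432%, lower) for the code. At an unadjusted p of 0.05 it marked 2 members as higher and 9 as lower in SC, against 5.83% and 13.9% of all transcripts. Without the minimum of 5 RPM it called Arpc5 as higher and Dync1h1, Kif1b, Tpm3-rs7, Mapt, Actb, Myl6 and Cfl1 as lower, against 1.75% and 3.06% of 5955 transcripts. DESeq2 called Arpc5 as higher and Tpm3-rs7 and Cfl1 as lower, against 0.605% and 0.346% of 2314.

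**Figure D4:**
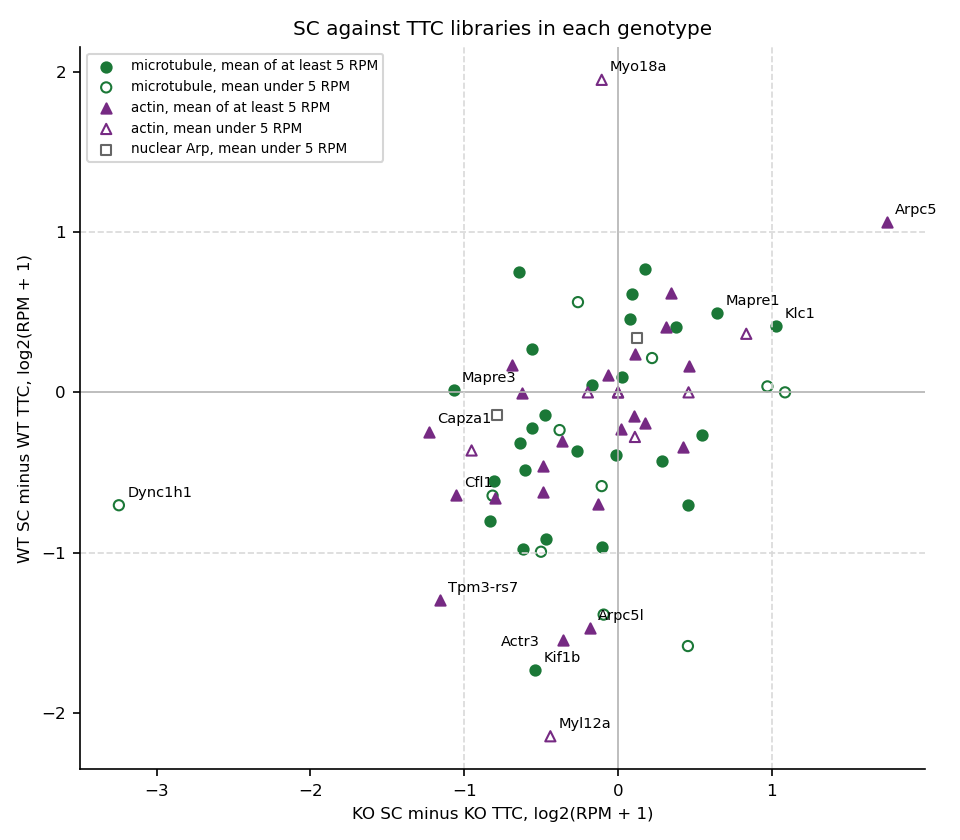
Difference between SC and TTC libraries in log2(RPM + 1) for the 70 members, in KO (x axis) and in WT (y axis), with symbols and dashed 2-fold lines as in the plot of KO against WT. Arpc5 lies at 1.75 and 1.06 and Tpm3-rs7 at −1.16 and −1.30, Dync1h1 lies far to the left at −3.24 and −0.70, and more points lie in the lower left than in the upper right.

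Mapre1, the end-binding protein EB1, was on the higher side with Arpc5. It had 98.8 and 62.9 RPM in KO SC and KO TTC and 91.1 and 64.4 RPM in WT SC and WT TTC, so that both SC levels lay above both TTC levels. It was called between the KO libraries (log2 difference 0.64, adjusted p = 2.37e-05) and just missed the threshold between the WT libraries (0.49, adjusted p = 0.0511). Mapre3, the neuronal end-binding protein EB3, was lower between the KO libraries, with 8.60 RPM in SC and 19.1 RPM in TTC (adjusted p = 0.00586), and level between the WT libraries, with 13.8 RPM in SC and 13.7 RPM in TTC. Kif1b was lower in SC in both genotypes. Its log2 difference was −0.54 between the KO libraries (adjusted p = 0.0569) and −1.73 between the WT libraries (adjusted p = 1.3e-06), with a limma code term of −1.14 ± 0.31 (SE, adjusted p = 0.118).

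The remaining calls were each made in 1 genotype only. Between the KO libraries Klc1 was called as higher in SC (log2 difference 1.03, adjusted p = 0.00959), and Capza1, Actg1, Kif1a, Dctn5 and Dync1h1 as lower, by 1.23, 0.69, 0.64, 0.48 and 3.24 in that order. Between the WT libraries Map1b and Dctn1 were called as lower in SC, by 0.96 and 0.91 on the log2 scale. Whether the KO and WT differences of these genes differ from each other was not tested.

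Over the 48 members at or above 5 RPM, 12 were higher and 23 lower in SC in both genotypes, against 23.2% and 40.9% of all 2314 transcripts. The median log2 difference was −0.17 (microtubule) and −0.11 (actin) between the KO libraries and −0.26 and −0.19 between the WT libraries, against −0.04 and 0 for all transcripts, many of which are at or near 0 reads. Among transcripts at or above 5 RPM it was −0.17 between the KO and −0.10 between the WT libraries. As deposited, 14 microtubule genes were higher and 23 lower between the KO libraries and 12 actin genes were higher and 17 lower. With median-of-ratios factors these became 18 and 19, and 15 and 14, with class medians of −0.00346 and 0, and the median of transcripts at or above 5 RPM was −0.01. Between the WT libraries the medians with these factors were −0.18 (microtubule) and −0.10 (actin).

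Set against each other within a library, where scaling does not enter, microtubule genes held the smaller part of the reads. Summed levels were 799 and 774 RPM (microtubule) and 1403 and 1476 RPM (actin) in KO SC and WT SC, and 962 and 963 RPM (microtubule) and 1934 and 1996 RPM (actin) in KO TTC and WT TTC. As deposited, both sums were thus higher in TTC than in SC libraries in each genotype. The microtubule share of the reads of both classes was 36.3% (35.1 to 37.5) in KO SC and 34.4% (33.1 to 35.8) in WT SC, and 33.2% (32.3 to 34.1) in KO TTC and 32.5% (31.1 to 34.0) in WT TTC. The intervals overlapped between KO and WT in both codes and between SC and TTC in WT, and were apart between KO SC and KO TTC. KO SC and KO TTC also stood apart without Actb and Actg1, at 48.8% (47.3 to 50.3) and 46.0% (44.9 to 47.1), and without Mapt and Actb, the most abundant of each class, at 39.2% (37.6 to 40.7) and 33.8% (32.7 to 35.0). Without Actb, Cfl1 and Mapt, a choice made after their levels were seen, the gap was not seen, and the share was 46.6% (44.8 to 48.3), 45.0% (43.1 to 46.9), 46.0% (44.6 to 47.4) and 46.0% (43.9 to 48.2) in KO SC, WT SC, KO TTC and WT TTC.

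**Figure D5:**
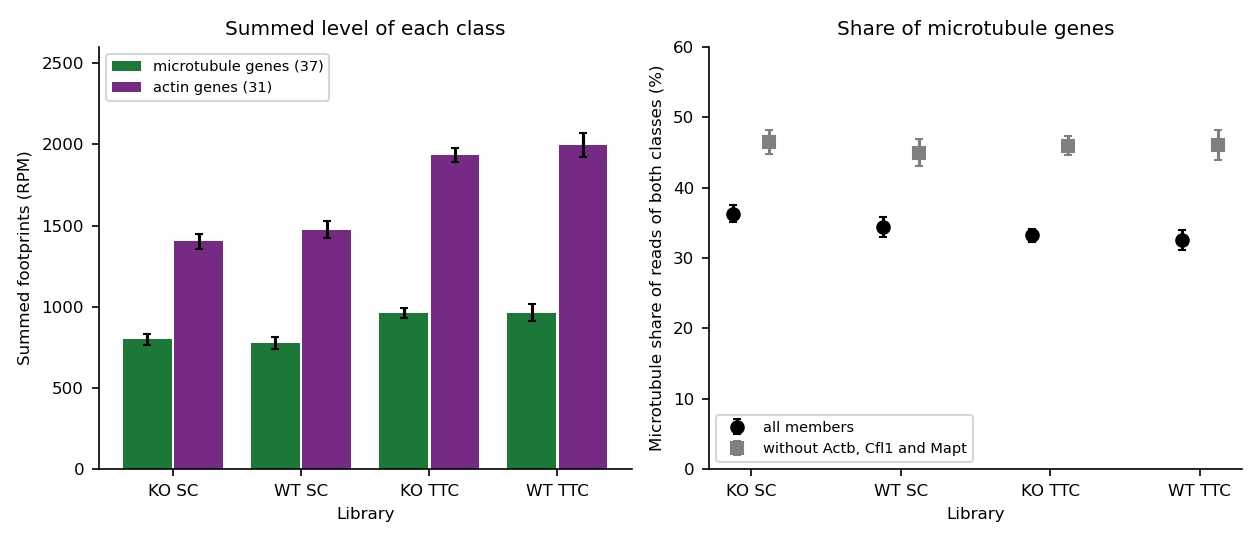
Left, summed footprint level (RPM, bars from 0, exact Poisson 95% intervals) of the 37 microtubule and 31 actin genes in each library. Right, microtubule share (%) of the reads of both classes with exact Clopper-Pearson 95% intervals, for all members (circles) and without Actb, Cfl1 and Mapt (squares). With all members the share is 36.3% in KO SC and 32.5% to 34.4% in the other libraries, and without the 3 genes it is 45.0% to 46.6%.

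A sequence feature that the choice by name did not use was also looked at, with no test of the difference between the classes. The CArG box is the site of the serum response factor (SRF), long known as an activator of actin genes. It was searched for on both strands in promoters from RefSeq (GRCm38.p6), 250 bases before to 50 bases after a start listed for the gene. A promoter was matched to 26 of 37 microtubule and 26 of 31 actin genes. The box was found in 3 actin promoters (Actg1, Arpc4 and Myl6) and in no microtubule promoter, against 1.81% of 27025 genes in the promoter table and 1.59% of the genes of the footprint table with a promoter. In Arpc4 it began 250 bases before the start, at the edge of the stretch searched. In Myl6 it lay within chr10:128493010-128493099 (minus strand), inside the gene as positioned here (128490859 to 128493886). The start used for Myl6 was thus not the outer end of the gene. A match is a description of the letters, not a bound site. The stretch upstream of the start of Actg1 is shown, with the CArG box in capitals, as the example from the most abundant of the 3 genes (chr11:120348536-120348625, minus strand).
Actg1: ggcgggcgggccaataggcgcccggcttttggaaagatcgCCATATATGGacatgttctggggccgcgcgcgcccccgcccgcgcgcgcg
The 3 genes with the box did not share one pattern between libraries: Myl6 was called as lower in SC in both genotypes, Actg1 between the KO libraries only and Arpc4 between the WT libraries only.

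Other genes of the same pathways were taken from lists of 54 microtubule and 69 actin genes outside the name rule. Of these, 45 and 48 were in the table, and 21 and 23 had a mean of at least 5 RPM. The most abundant microtubule genes were the stathmins Stmn1, Stmn2 and Stmn4, which bind free tubulin. Stmn2, a marker of growing axons, had 290 and 288 RPM in KO SC and WT SC and 267 and 227 RPM in KO TTC and WT TTC. The most abundant actin genes were Cap1, which recycles actin monomers, the small GTPase Cdc42 and the cofilin relative Dstn, with Cap1 at 61.0 and 73.9 RPM in KO SC and WT SC and 71.7 and 56.8 RPM in KO TTC and WT TTC. Between KO and WT, 1 of the 21 microtubule genes was 2-fold higher and 3 lower in the SC pair (2.98% and 6.83% of all 2314 transcripts), and 1 higher and 0 lower in the TTC pair (5.27% and 4.67%). Of the 23 actin genes, 3 were higher and 1 lower in the SC pair, and 1 higher and 0 lower in the TTC pair, to be read against the same shares. One gene of each list was 2-fold higher in KO in both, as were 6 of all 2314 transcripts (0.259%, with 0.908% lower in both). Dpysl2 (CRMP2), which binds tubulin in growing axons, had 8.98 and 3.82 RPM in KO SC and WT SC and 5.20 and 2.05 RPM in KO TTC and WT TTC, on 3 to 24 reads. Wasf3, a WAVE protein that activates Arp2/3, had 10.8 and 4.29 RPM in KO SC and WT SC and 12.04 and 4.11 RPM in KO TTC and WT TTC. The WT levels of both genes lay below 5 RPM. Both thus reached the minimum mean only through the KO libraries, where they were higher. Neither was called by limma at an adjusted p of 0.05, and neither list held a transcript that was.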

How the data were processed

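Per the labels, ribosome footprints of harringtonine-treated cortical neurons were sequenced, and the submitters' processing notes name Bowtie, SAMtools, bedtools and the build GRCm38 (mm10), without versions. The authors deposited 1 table of RPM values at initiation sites for 6352 transcripts, scaled to all reads of a library. The window counted, the annotation, the choice of 1 site per transcript and the treatment of reads that match several places are not given in the sources used here. Reads of near-identical genes may therefore be divided or lost. Dividing by the smallest step of each library gave whole reads within 1e-06 for 100% of values. A level of 3 reads corresponds to 1.12, 1.43, 0.821 and 2.05 RPM in KO SC, WT SC, KO TTC and WT TTC.

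Symbols were joined by transcript identifier from the study's supplementary gene list for 6351 transcripts, of which 38 first needed the repair of an identifier, none of them a member. The list also holds the authors' KO minus WT differences, which were not used. Gene positions are from RefSeq (GRCm38.p6).

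Levels were compared as log2(RPM + 1) without a test, with calls at 2-fold and a 4-library mean of at least 5 RPM. limma-trend (3.58.1) was fitted to genotype and code over 4 libraries, with 1 residual degree of freedom. edgeR (4.0.16, quasi-likelihood) and DESeq2 (1.42.0) on recovered reads, the exact binomial test and other scalings, pseudocounts and minimums were alternatives. The software was R 4.3.3, Python 3.11.15, scipy 1.17.1, pandas 2.3.3, numpy 2.4.6 and matplotlib 3.10.9. On simulated data for the genotype term (2329 transcripts tested), limma recovered 25% of 2-fold and 89% of 4-fold changes with 1 unchanged transcript called, edgeR with library sizes as recovered 8% and 72%, edgeR with TMM factors 12% and 79%, and DESeq2 3% and 45%. The exact binomial test called 208 (SC pair) and 191 (TTC pair) of the unchanged transcripts among 5646. The simulation gave all transcripts the same dispersion, no difference between codes and the same genotype difference in both codes. Its scatter was not matched to the real libraries, so these rates need not hold for them.

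The members and lists were chosen with earlier results of these data known. Genes named are the 6 most abundant of each class, those past 2-fold or called by the exact binomial test in any comparison, those with 0 reads in at least 2 libraries and near-identical pairs. The other dynein, kinesin, capping and Arp2/3 genes with values, Myl12b, Actr3b, Tmod2, Capza2 and Dctn4 and Kif5a to Kif5c, were named after their values were seen, to complete a family or as marked at an unadjusted p. From the other lists, the 3 most abundant genes and those past 2-fold in both KO comparisons are named.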

Additional observations from a re-analysis of the deposited data

Results flagged for a closer look

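Dync1h1, the dynein heavy chain, differed between KO and WT in opposite directions in the library pairs, with a log2(RPM + 1) difference of −2.27 in the SC pair (0 reads in KO SC and 8 in WT SC) and 0.27 in the TTC pair (31 reads in KO TTC and 10 in WT TTC). Mapre3, the end-binding protein EB3, differed between SC and TTC by −1.07 in the KO libraries (23 reads in SC and 70 in TTC) and by 0.0137 in the WT libraries (29 reads in SC and 20 in TTC). Each was picked out because it passed 2-fold in one pair of libraries, with a 4-library mean of at least 5 RPM (Mapre3) or a call by the exact binomial test in that pair (Dync1h1), and had the opposite sign in the other. With 1 library per condition, the difference between the pairs was not tested.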

How the results depend on the processing

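Class medians of the log2 difference were close to 0, and some changed sign or moved by over 0.1 (a size chosen after the data were seen). For microtubule genes, KO SC over WT SC had 0.04, against −0.0257 at a mean of at least 5 RPM and 0.17 with median-of-ratios factors, KO TTC over WT TTC had −0.04, against 0 with median-of-ratios factors, and KO SC over KO TTC had −0.17, against −0.0317 with libraries rescaled to the same sum and −0.00346 with median-of-ratios factors. For actin genes, KO SC over WT SC had 0, against −0.0127 at 5 RPM, 0.0231 with the same sum, 0.0881 with median-of-ratios factors and 0.0130 with the actin-related proteins of dynactin counted as actin genes, and KO TTC over WT TTC had 0, against −0.15 at 5 RPM and −0.0548 with those proteins counted. KO SC over KO TTC had −0.11, against 0 with the same sum and with median-of-ratios factors, and WT SC over WT TTC had −0.19, against −0.0875 with the same sum. Counts of members past 2-fold were small and moved easily. KO SC over WT SC had 1, against 7 with no filter, 0 at a mean of at least 10 RPM, 0 with a pseudocount of 5 RPM, 2 with median-of-ratios factors and 4 by the exact binomial test. KO TTC over WT TTC had 2, against 6 with no filter, 1 at 10 RPM, 1 with a pseudocount of 5 RPM and 7 by the exact binomial test. KO SC over KO TTC had 6, against 3 with a pseudocount of 5 RPM, 3 with median-of-ratios factors and 15 by the exact binomial test. WT SC over WT TTC had 5, against 9 with no filter, 3 at 10 RPM, 3 with a pseudocount of 5 RPM and 11 by the exact binomial test. The microtubule share in KO SC, WT SC, KO TTC and WT TTC was 48.8%, 47.9%, 46.0% and 46.9% without Actb and Actg1. It was 39.2%, 37.7%, 33.8% and 36.5% without Mapt and Actb, the most abundant of each class. Without Actb, Cfl1 and Mapt, an alternative added after seeing the data, it was 46.6%, 45.0%, 46.0% and 46.0%. In KO TTC it was 32.2% with the actin-related proteins of dynactin counted as actin genes and 34.2% without Tpm3-rs7 (also added after seeing the data). limma called 0 members for the genotype, against 2 with no filter (Dctn1 and Tmod3), and 0 for the code, against 8 with no filter and 3 with DESeq2. Without a filter more transcripts share the fit, and the cause of these changes was not tested. The limma, edgeR and DESeq2 fits block on the code, so that KO is set against WT of its own code. No further pairing by replicate number could be made, since the labels give none, and no library could be left out, since each condition had 1. Depth limits the low members: the median member had 23, 22, 36 and 17 reads in KO SC, WT SC, KO TTC and WT TTC.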
